A study of Mus musculus with 2 samples.

Results

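The HSP90 chaperones and their co-chaperones were followed as 10 genes, the rows of both expression tables that carry their symbols, out of 24346 symbols in all. They comprise the 4 HSP90 genes Hsp90aa1, Hsp90ab1, Hsp90b1 and Trap1, and 6 co-chaperone genes, Ahsa1, Ahsa2, Stip1, Chordc1, Fkbp4 and Cdc37. Both tables come from RNA sequencing of splenic CD4+ T cells of mice, sorted at day 14. The first library is from HFD-MI mice that received probucol, a lipid-lowering antioxidant, and the second from HFD-MI mice left untreated. HFD-MI is the label of both groups, and the series as a whole concerns the heart after myocardial infarction. HypoE, a word in the headers of both tables, is not defined by the labels. Genotype, strain, age, dose and the number of animals behind each library are not stated in the labels, so neither group can be described further as a model.

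HSP90 is an ATP-driven dimer that helps kinases, steroid hormone receptors and other client proteins reach or keep an active fold. Vertebrate cells have an inducible and a constitutive cytosolic form (Hsp90aa1 and Hsp90ab1), an endoplasmic reticulum form (Hsp90b1, also called GRP94) and a mitochondrial form (Trap1). Co-chaperones deliver clients, set the pace of the ATPase or add further enzyme activities. In T cells the receptor-proximal kinase Lck is a known client of the cytosolic forms, and several integrins and Toll-like receptors need the endoplasmic reticulum form to fold.

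Both cytosolic HSP90 genes and 5 of the 6 co-chaperone genes, all but Cdc37, were 1.71-fold to 2.75-fold higher in the probucol library, whereas the mitochondrial form and the kinase co-chaperone Cdc37 were at nearly the same level in both. Of the 10 genes, 8 had a higher value with probucol and 2 a lower one. The count of at least 2-fold higher, on the log2 ratio of FPKM + 1, was 4 (Hsp90aa1, Ahsa2, Stip1 and Chordc1), and 0 were at least 2-fold lower. Over all 10663 genes with a mean FPKM of 1 or more, 1.62% were at least 2-fold higher, 1.98% at least 2-fold lower, and 52.7% had any higher value. The median log2 ratio of the 10 genes was 0.94, against 0.02 over those 10663 genes. The genes were chosen by name with their FPKM ratios between these libraries known, so the counts and medians are a description. FPKM relates the fragments of a gene to the length of its transcript and to all mapped fragments of the library, so levels of different genes can be set side by side. With 1 library per group there was no replicate spread and no test, and every interval given covers counting error only.

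**Figure D1:**
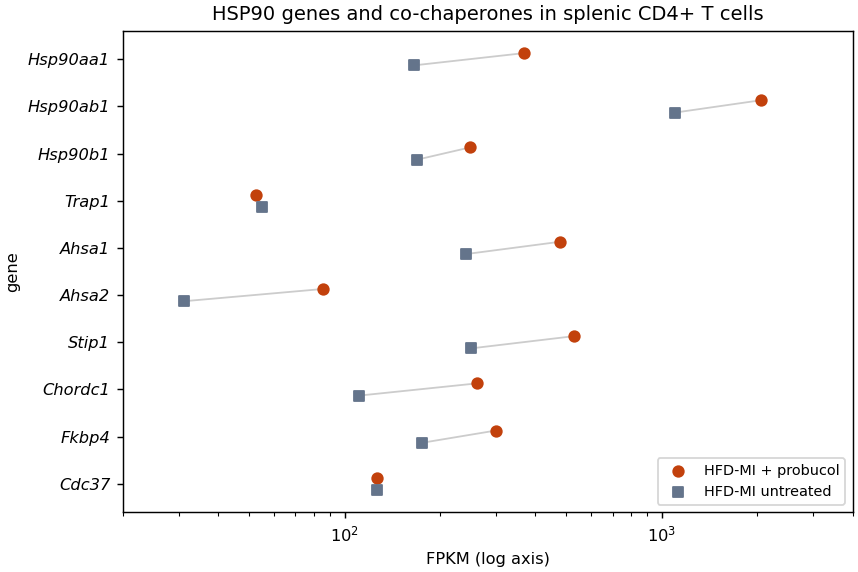
FPKM of the 10 genes (log axis) in the probucol library (circles, upper of each pair) and the untreated library (squares, lower of each pair), 1 library each. Hsp90ab1 was the highest in both libraries, at 2051 FPKM in the probucol library against 1104 FPKM in the untreated library, and the symbols of Trap1 and Cdc37 nearly coincide.

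Hsp90aa1 (chr12:110690605-110702728, GRCm38, minus strand), the stress-inducible cytosolic form, was at 369 FPKM in the probucol library against 166 FPKM in the untreated library. The probucol value was 2.23-fold higher (95% counting interval 2.15 to 2.30), on about 10493 fragments with probucol and 4734 untreated. Of the 10663 genes, 1.06% had a higher ratio. Hsp90ab1 (chr17:45567775-45573271, minus strand), the constitutive form, was far more abundant, at 2051 FPKM in the probucol library against 1104 FPKM in the untreated library. It was 1.86-fold higher (1.83 to 1.89), below the 2-fold line, but by far the largest gain in level among the 10 genes, 947 FPKM against 203 FPKM for Hsp90aa1. Among all symbols ordered by FPKM it stood at place 42 with probucol and place 113 untreated.

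The inducible form had the larger ratio and the constitutive form the larger absolute difference. Hsp90aa1 reached 0.180 of the Hsp90ab1 level with probucol and 0.150 untreated, so the fold of Hsp90aa1 was 1.20 times that of Hsp90ab1 (1.15 to 1.24). Within the summed FPKM of both cytosolic genes, 2420 with probucol and 1270 untreated, Hsp90aa1 made up 15.2% with probucol and 13.04% untreated. Most cytosolic HSP90 transcript came from Hsp90ab1 in both libraries.

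The coding sequences of these 2 genes were 76.1% identical over 2171 aligned bases. Both also have processed pseudogenes, intronless copies elsewhere in the genome, from which their fragments are harder to separate. For Hsp90aa1, 30 annotated pseudogenes aligned over at least 10% of its coding sequence, 3 of them at 95% identity or more over at least 30% of it. Gm12346 was the closest, at 99.5% identity over the full coding length. For Hsp90ab1, 35 pseudogenes aligned, the closest full-length one being Gm6368 at 90.8%. The counts overlap, and several pseudogenes counted for Hsp90aa1 are closer to Hsp90ab1. Gm6368, for example, is only 72.4% identical to Hsp90aa1. How fragments matching several copies were assigned is not given in the sources used here, so the levels of Hsp90aa1 in particular are uncertain.

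Hsp90b1 (chr10:86690209-86705509, minus strand), the endoplasmic reticulum form, differed less. It was at 248 FPKM in the probucol library against 169 FPKM in the untreated library, 1.47-fold higher (1.41 to 1.53). The fold of Hsp90aa1 was 1.51 times that of Hsp90b1 (1.44 to 1.59). In its promoter window the letters of the endoplasmic reticulum stress element, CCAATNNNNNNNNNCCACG on either strand, occurred at 2 places, while 0.119% of 32851 promoter windows of the same length held this motif. The windows of Hspa5, Calr, Canx, Pdia6, Dnajc3 and Creld2 also held it, at 1 place each. The ratios of these endoplasmic reticulum genes ran from 0.881 (Calr) to 1.28 (Hspa5). The stretch with both Hsp90b1 matches is shown because no other promoter among the 8 members with a window held the motif. It is given 5′ to 3′ on the gene's strand (chr10:86705524-86705666, GRCm38.p6, RefSeq), with the matches in capitals.
Hsp90b1: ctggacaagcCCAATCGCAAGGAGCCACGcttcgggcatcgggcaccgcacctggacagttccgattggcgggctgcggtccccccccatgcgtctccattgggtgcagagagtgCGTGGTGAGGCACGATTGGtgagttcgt

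Trap1 (chr16:4039971-4077827, minus strand), the mitochondrial form, was the lowest of the HSP90 genes, at 52.5 FPKM in the probucol library against 55.1 FPKM in the untreated library. The ratio was 0.954 (0.878 to 1.04), and the interval included no difference. The fold of Hsp90aa1 was 2.33 times that of Trap1 (2.13 to 2.55). Because the other 3 genes were higher, Trap1 made up 1.93% of the summed HSP90 FPKM with probucol and 3.69% untreated. The share of Hsp90b1 in that sum was 9.13% with probucol and 11.3% untreated, and that of Hsp90aa1 13.5% with probucol and 11.1% untreated, a difference of 2.46 percentage points (2.07 to 2.85). Hsp90ab1 supplied 75.4% with probucol and 73.9% untreated.

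**Figure D2:**
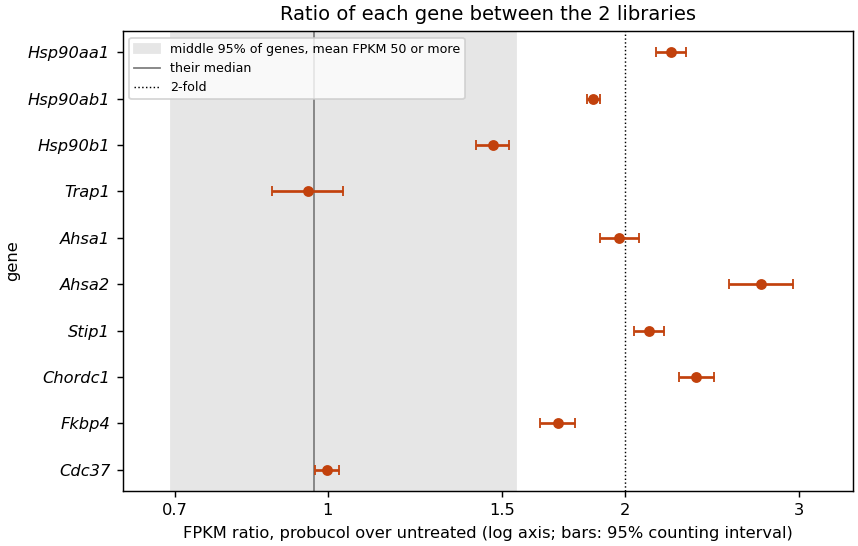
FPKM ratio of each gene, probucol over untreated (log axis, 1 library each), with 95% counting intervals as bars. The grey band is the middle 95% of the 2291 genes with a mean FPKM of 50 or more, from 0.693 to 1.55, with their median at 0.968; the 26 listed at 0 in 1 library are ranked at its ends. The points of Trap1, Cdc37 and Hsp90b1 lie inside the band, and those of the other 7 genes above it.

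The 2 AHA1-type genes encode activators of the HSP90 ATPase. Ahsa1 (chr12:87266479-87273998, plus strand) was at 477 FPKM in the probucol library against 242 FPKM in the untreated library. It was 1.97-fold higher (1.89 to 2.07), just under the 2-fold line, and passed it once both libraries were rescaled to the same FPKM sum. Ahsa2 (chr11:23487882-23498030, minus strand), a less abundant relative of Ahsa1, was at 85.4 FPKM in the probucol library against 31.1 FPKM in the untreated library. At 2.75-fold (2.55 to 2.96) it had the highest ratio of the 10 genes, and the fold of Hsp90aa1 was 0.810 times that of Ahsa2 (0.747 to 0.879). The untreated level of Ahsa2 was the lowest of the 10. Of its exonic bases, 47.2% overlap exons of Usp34, a ubiquitin protease gene on the opposite strand. Usp34 itself was at 2.58 FPKM in the probucol library against 1.74 FPKM in the untreated library. No use of strand in the counting is stated, so fragments from the shared bases cannot be assigned to one gene.

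Stip1 and Cdc37 both bring clients to HSP90 and stood apart from each other. Stip1 (chr19:7020702-7039967, minus strand), also called HOP, bridges HSP70 and HSP90. It was at 528 FPKM in the probucol library against 249.8 FPKM in the untreated library, 2.12-fold higher (2.04 to 2.19), the most abundant of the 6 co-chaperones in both libraries. Its fold was the closest below that of Hsp90aa1, which was 1.05 times as large (1.002 to 1.10). Cdc37 (chr9:21133222-21149982, minus strand) loads protein kinases onto HSP90. It was at 126.5 FPKM in the probucol library against 126.7 FPKM in the untreated library, a ratio of 0.998 (0.970 to 1.03). The fold of Hsp90aa1 was 2.23 times that of Cdc37 (2.13 to 2.33).

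Chordc1 and Fkbp4 were higher with probucol to different degrees. Chordc1 (chr9:18292125-18317442, plus strand) encodes a zinc-binding HSP90 partner also called CHP-1 or morgana. It was at 262 FPKM in the probucol library against 111 FPKM in the untreated library, 2.36-fold higher (2.27 to 2.46). The fold of Hsp90aa1 was 0.943 times that of Chordc1 (0.894 to 0.994). Fkbp4 (chr6:128429735-128438677, minus strand) encodes FKBP52, an immunophilin with peptidyl-prolyl isomerase activity that works with steroid receptors. It was at 299.9 FPKM in the probucol library against 176 FPKM in the untreated library, 1.71-fold higher (1.64 to 1.78). The fold of Hsp90aa1 was 1.30 times that of Fkbp4 (1.23 to 1.37). Across the 9 comparisons of Hsp90aa1 with another member, the counting interval left out 1 in every case. It did so only narrowly for Stip1 (1.002 to 1.10) and Chordc1 (0.894 to 0.994), so these 2 depend on the estimated fragments. Only Ahsa2 and Chordc1 had a larger fold than Hsp90aa1.

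The promoter windows of the members were searched for heat shock elements, inverted repeats of GAA that heat shock factors bind. A window held 250 bases before the RefSeq start and 50 from it on (GRCm38.p6), and 8 of the 10 genes had one (not Hsp90aa1 and Hsp90ab1). The pairs GAANNTTC and TTCNNGAA, each its own reverse complement, occur in 7.86% and 8.52% of all 32851 windows. The 3-block form GAANNTTCNNGAA, on either strand, occurs in 0.603%. Chordc1 held 5 alternating blocks without a gap, GAANNTTCNNGAANNTTCNNGAA, at the RefSeq start site (chr9:18292263-18292285). The gene start printed above for Chordc1, chr9:18292125, lies upstream of this run. The Chordc1 window was the 1 of 32851 with this form on either strand (0.00304%). Its shorter matches lie within this run, apart from 1 further TTCNNGAA. Fkbp4 held 1 GAANNTTC and Cdc37 1 TTCNNGAA. In the windows of Ahsa1, Ahsa2, Stip1, Trap1 and Hsp90b1 these letters were not found. Among the heat shock genes outside the family, Hsph1, Hspd1 and Hspe1 held the 3-block form in at least 1 window. Hspa1a, Hspa1b, Dnaja1, Hspb1 and Bag3 held GAANNTTC alone, and Hspa4, Hspa4l, Dnajb1 and Hsf2 held none of these letters. The motifs were chosen with these sequences and ratios in view, and a match is a description of letters, not of binding. The stretches with a match are shown 5′ to 3′ on the gene's strand with the match in capitals, from chr9:18292260-18292289 for Chordc1, chr6:128438769-128438838 for Fkbp4 and chr9:21150066-21150135 for Cdc37.
Chordc1: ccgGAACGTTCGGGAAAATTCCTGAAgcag
Fkbp4: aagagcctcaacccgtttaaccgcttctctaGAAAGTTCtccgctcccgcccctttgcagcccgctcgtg
Cdc37: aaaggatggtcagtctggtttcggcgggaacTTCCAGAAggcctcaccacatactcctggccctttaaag

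Set against 100 FPKM of cytosolic HSP90 (Hsp90aa1 plus Hsp90ab1), the co-chaperone transcripts differed in how far their proportions lay apart. Ahsa1 was at 19.7 with probucol and 19.0 untreated, and Fkbp4 at 12.4 with probucol and 13.8 untreated. Stip1 was at 21.8 with probucol and 19.7 untreated. Chordc1 was at 10.8 with probucol and 8.74 untreated, and Ahsa2 at 3.53 with probucol and 2.45 untreated. Cdc37 showed the widest gap in these units, at 5.23 with probucol and 9.98 untreated, since its own level was nearly equal in both libraries while that of cytosolic HSP90 was not. These are proportions of transcripts and say nothing of protein.

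**Figure D3:**
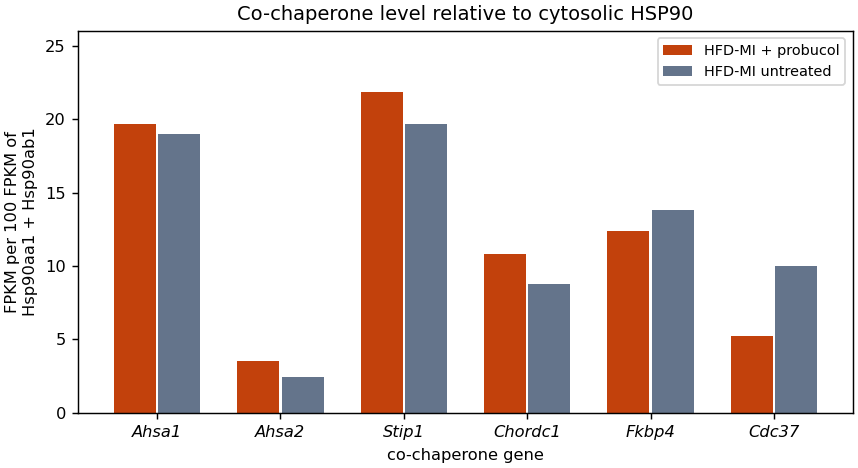
FPKM of each co-chaperone gene per 100 FPKM of Hsp90aa1 plus Hsp90ab1, in the probucol library (left bars) and the untreated library (right bars), 1 library each. Cdc37 stands at 5.23 with probucol and 9.98 untreated, whereas Ahsa1 stands at 19.7 with probucol and 19.0 untreated.

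A wider list of HSP90 co-chaperones had a median ratio close to that of all genes. Of 30 further genes, 28 had a mean FPKM of 1 or more; 19 of these were higher with probucol, 9 lower, and 0 were past 2-fold in either direction. Their median log2 ratio was 0.09, against 0.02 over all genes. Of all 10663 genes, 52.7% were higher, 1.62% at least 2-fold higher and 1.98% at least 2-fold lower. The highest ratios belonged to St13, an HSP70-interacting adaptor, at 180 FPKM in the probucol library against 109.9 FPKM in the untreated library, 1.64-fold higher (1.56 to 1.73), and to Cacybp, a calcyclin-binding protein, at 239 FPKM in the probucol library against 146 FPKM in the untreated library, 1.64-fold higher (1.56 to 1.72). Ptges3, which encodes the late-acting co-chaperone p23, was at 279 FPKM in the probucol library against 177 FPKM in the untreated library, 1.57-fold higher (1.498 to 1.65). Ttc4, whose yeast relative Cns1 binds HSP90, was at 35.6 FPKM in the probucol library against 23.6 FPKM in the untreated library, 1.51-fold higher (1.31 to 1.75). Fkbp5, which encodes the FKBP51 relative of FKBP52, was chosen after its values were seen. It was at 30.7 FPKM in the probucol library against 28.5 FPKM in the untreated library, a ratio of 1.08 (0.986 to 1.18).

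The heat shock genes outside the HSP90 family overlapped the members in their ratios. Of 14 genes with a mean FPKM of 1 or more, 13 were higher with probucol, 5 of them at least 2-fold, and the median log2 ratio was 0.81. Over all 10663 genes, 52.7% were higher and 1.62% at least 2-fold higher. Hspd1 and Hspe1 are counted in this list and in the mitochondrial list below. Hsph1, an HSP110 chaperone, was at 299.8 FPKM in the probucol library against 87.4 FPKM in the untreated library. It was 3.43-fold higher (3.28 to 3.58), above any HSP90 member. Hspa1a, at 3.79 FPKM in the probucol library against 1.27 FPKM in the untreated library, was 2.98-fold higher (2.02 to 4.51). Hspa4l was 2.77-fold higher (2.53 to 3.04). Both folds were above that of Ahsa2, 2.75 (2.55 to 2.96), but their counting intervals overlapped its interval. On the log2 ratio of FPKM + 1, Hspa1a was at 1.08 and Hspa4l at 1.39, below Ahsa2 at 1.43. The co-chaperone Bag3 was at 21.5 FPKM in the probucol library against 10.2 FPKM in the untreated library, 2.11-fold higher (1.81 to 2.47). Ratios were smaller for Dnajb1, 1.17-fold higher (1.12 to 1.23), and for Hspa8, the most abundant of the list, 1.47-fold higher (1.45 to 1.48). Hsf1, the main heat shock transcription factor, was at 59.9 FPKM in the probucol library against 41.4 FPKM in the untreated library, 1.45-fold higher (1.32 to 1.59), and Hsf2 was the 1 lower gene, at 1.70 FPKM in the probucol library against 2.52 FPKM in the untreated library. Dnajb1, Hspa8, Hsf1 and Hsf2 were chosen after their values were seen.

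Genes of the other compartments were set beside the HSP90 gene of each. Of 16 endoplasmic reticulum chaperone and stress genes, 12 were higher with probucol, 4 lower and 0 past 2-fold, with a median log2 ratio of 0.11. Hspa5, the HSP70 of that compartment, was at 461 FPKM in the probucol library against 359 FPKM in the untreated library, 1.28-fold higher (1.25 to 1.32), and Dnajb9 was 1.46-fold higher (1.28 to 1.67), close to the 1.47-fold of Hsp90b1. Of 9 mitochondrial chaperone and protease genes, 8 were higher, 1 of them at least 2-fold, and the median was 0.13. Among all 10663 genes, 52.7% were higher, 1.62% at least 2-fold higher and 1.98% at least 2-fold lower. The chaperonin pair Hspd1 and Hspe1 was 2.06-fold (1.98 to 2.16) and 1.88-fold higher (1.76 to 2.01), against a ratio of 0.954 for Trap1. Hspa9, the mitochondrial HSP70, chosen after its values were seen, was at 121 FPKM in the probucol library against 123 FPKM in the untreated library, a ratio of 0.985 (0.940 to 1.03).

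**Figure D4:**
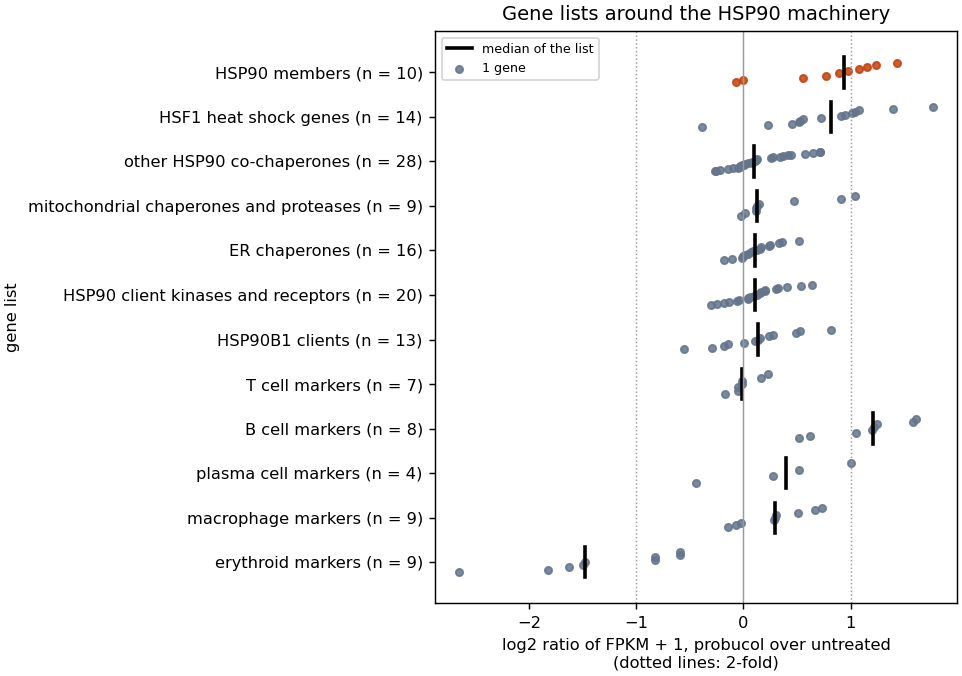
Log2 ratio of FPKM + 1, probucol over untreated (1 library each), for every gene with a mean FPKM of 1 or more in 12 lists, with the list median as a black bar and 2-fold as dotted lines. The medians of the HSP90 members and of the heat shock genes stand at 0.94 and 0.81, those of the other chaperone and client lists between 0.09 and 0.13, and those of the B cell, plasma cell, macrophage and erythroid markers at 1.21, 0.40, 0.30 and -1.47.

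The libraries were of like size, with an estimated 9.63e+06 fragments in genes with probucol and 9.64e+06 untreated. They differed in detection, with 14289 symbols above 0 in the probucol library and 16876 in the untreated library. What lay behind this gap was not tested. T cell markers were close in both libraries. Of 7 T cell genes 0 were past 2-fold, and their summed FPKM was 4187 with probucol and 4227 untreated. Cd4 itself was at 334 FPKM in the probucol library against 284 FPKM in the untreated library, and Cd8a at 0.139 FPKM in the probucol library against 0.276 FPKM in the untreated library. Cd8b1, the partner chain of Cd8a, was at 15.9 FPKM in the probucol library against 19.6 FPKM in the untreated library. Markers of other cells also differed, and the counts below stand beside 52.7% higher and 1.62% at least 2-fold higher over all 10663 genes. The B cell list stood higher in the probucol library in all 8 genes measured, 6 of them at least 2-fold, and the summed FPKM of the 12 listed was 323 with probucol and 203 untreated, mostly Cd74 at 258 FPKM with probucol and 179.6 FPKM untreated. The other 11 summed to 65.2 FPKM with probucol and 23.5 FPKM untreated, and Pax5 was listed at 0 in both. Of 4 plasma cell genes measured, 3 were higher and 1 (Prdm1) lower, Mzb1 being 2.34-fold higher (1.38 to 4.11), and the 6 listed summed to 42.9 FPKM with probucol and 32.5 FPKM untreated. Of 9 macrophage genes measured, 6 were higher and 3 lower, 0 past 2-fold on the log2 ratio of FPKM + 1, with Csf1r at 3.75 FPKM in the probucol library against 1.85 FPKM in the untreated library, and the 10 listed summed to 191 FPKM with probucol and 181 FPKM untreated. Of 9 erythroid genes measured, 0 were higher and 9 lower, 5 of them at least 2-fold, against 1.98% at least 2-fold lower over all genes. The 10 erythroid genes found (Ahsp was not) summed to 367 FPKM with probucol and 1203 untreated. The part of these cells in the HSP90 values was not tested. In bulk libraries, more cells of a type and more RNA per cell cannot be told apart.

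The genes whose ratios lay nearest to that of Hsp90aa1, by the difference of log2 ratios over these 2 libraries among 2255 other genes with a mean FPKM of 50 or more and a value above 0 in both (26 were listed at 0 in 1 library), were Atp6v0c, Gdpd3, Hspd1, Dtx1 and Snora28. Atp6v0c, a subunit of the vacuolar proton pump, was at 101 FPKM in the probucol library against 43.3 FPKM in the untreated library, 2.33-fold higher (2.05 to 2.66). Gdpd3, a phosphodiesterase family gene, was at 276 FPKM in the probucol library against 115 FPKM in the untreated library, 2.39-fold higher (2.23 to 2.57). Dtx1, which encodes the ubiquitin ligase Deltex-1, was at 94.5 FPKM in the probucol library against 46.6 FPKM in the untreated library, 2.03-fold higher (1.92 to 2.15). In this more abundant range, 1.48% of 2291 genes were at least 2-fold higher with probucol, and the ranks of the members by ratio ran from 25 (Ahsa2) to 1239 (Trap1).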

How the data were processed

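RNA of 2 libraries was compared, 1 per group. Per the file headers, the authors deposited FPKM, 1 value for each gene symbol. The submitters' processing notes list the tools TopHat2 2.1.1, Bowtie2 and Cuffdiff 2.2.1 and the build mm10, with no roles. The annotation, the filters and the handling of multiply mapped reads are each not stated there. Per the labels' protocols, cDNA was full-length (SMART-Seq HT) with Nextera libraries, and no molecular identifiers are named, so PCR copies remain.

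Ratios are probucol over untreated. Single-gene folds are plain FPKM ratios. Counts used log2 of FPKM + 1 at a mean FPKM of 1 or more, with a log2 ratio of 1 as the 2-fold threshold. Fragments were estimated from steps in low FPKM values (78.8% with probucol and 78.6% untreated within 0.1 of a whole number, 20% by chance) and median lengths of GENCODE M21 basic transcripts (GRCm38, the assembly of mm10) minus 210 bp. For Cdc37 that transcript is 7851 bases, which may overstate its fragments and make every interval with Cdc37 too narrow. For Chordc1 the length of 3154 bases is the median of 2 transcripts, the longer of 5789 bases. If its fragments came from a shorter transcript, the Chordc1 intervals would be wider. PCR copies would also make every interval too narrow. Intervals of 95% are exact Clopper-Pearson for folds and Woolf intervals for ratios of folds. Look-alike genes came from BLAST 2.17.0, statistics from SciPy 1.17.1. The scripts were tested on simulated data with counting error only. That test does not cover PCR copies, errors in the lengths or differences between animals.

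The members, lists, motifs and tests were chosen with earlier results of these data known. Named genes are the 10 members, the 5 genes nearest to Hsp90aa1 and genes of each list. From a list came up to 4 genes with the largest absolute log2 ratio, and any others past 2-fold. For length, not all are printed. Snora28 has no counting interval, and its value is not reported here.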

Additional observations from a re-analysis of the deposited data

How the results depend on the processing

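The count of 4 members at least 2-fold higher was also found with pseudocounts of 0.1 and 5, with no filter, where the mean FPKM reached 5 or 50 (the last chosen after seeing the data), and after centring on the median gene; it was 5 after rescaling to equal sums, where Ahsa1 was added. The count over all genes, 173 of 10663 in the report (1.62%), was 313 with pseudocount 0.1 (2.94%) and 55 with pseudocount 5 (0.516%). It was 83 of 8042 where the mean FPKM reached 5 (1.03%) and 34 of 2291 where it reached 50 (1.48%). The other settings tried for the Hsp90aa1 comparisons and share stayed within their counting intervals. Of the 40 single-gene values under 4 settings, 38 stayed within them, and 2 did not, Ahsa2 with FPKM + 5 (log2 1.33) and Hsp90ab1 after rescaling (0.92). No called direction turned. Cdc37, 1 of the 2 lower genes and not called, had a log2 ratio of 0.02 after rescaling. No paired analysis was possible because each group had 1 library and no test was made. Differences between animals, sorts and library preparations are not covered by any interval.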

Other observations

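Lists of known clients of the HSP90 proteins had median ratios close to that of all genes. Of 20 client kinases and receptors of the cytosolic forms, 14 were higher with probucol, 6 lower and 0 past 2-fold, with a median log2 ratio of 0.11. The shares over all 10663 genes were 52.7% higher, 1.62% at least 2-fold higher and 1.98% at least 2-fold lower. Lck, the kinase that starts T cell receptor signalling, was at 1092 FPKM in the probucol library against 974 FPKM in the untreated library, 1.12-fold higher (1.10 to 1.14). Chuk, a kinase of the NF-kB pathway, was at 31.04 FPKM in the probucol library against 19.6 FPKM in the untreated library, 1.58-fold higher (1.43 to 1.75). Braf, a kinase of the MAP kinase pathway, was at 4.36 FPKM in the probucol library against 2.68 FPKM in the untreated library, 1.62-fold higher (1.39 to 1.91). Nr3c1, the glucocorticoid receptor, was at 30.2 FPKM in the probucol library against 22.6 FPKM in the untreated library, 1.34-fold higher (1.24 to 1.44), and Jak2, a cytokine receptor kinase, at 26.7 FPKM in the probucol library against 21.2 FPKM in the untreated library, 1.26-fold higher (1.16 to 1.37). Cdk4, a cell cycle kinase, was at 144 FPKM in the probucol library against 171 FPKM in the untreated library, a ratio of 0.844 (0.791 to 0.901). Lck and Cdk4 were chosen after their values were seen.

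Of 13 measured clients of Hsp90b1, 9 were higher with probucol, 4 lower and 0 past 2-fold on the log2 ratio of FPKM + 1, with a median of 0.13. The same shares over all genes (52.7%, 1.62% and 1.98%) stand beside these counts. The integrin chains Itgb7 and Itgb1 were at 544 and 129 FPKM with probucol and at 601 and 158 FPKM untreated, ratios of 0.904 (0.883 to 0.925) and 0.817 (0.785 to 0.849), while Itgb2 had a ratio of 1.07 (1.04 to 1.11). The integrins were chosen after their values were seen, apart from Itgae, at 4.45 FPKM in the probucol library against 7.02 FPKM in the untreated library. The Toll-like receptor Tlr1 was at 26.1 FPKM in the probucol library against 17.8 FPKM in the untreated library, 1.47-fold higher (1.31 to 1.65). Tlr7, an RNA sensor also used by B cells, was at 1.85 FPKM in the probucol library against 0.612 FPKM in the untreated library, on about 66 fragments with probucol and 22 untreated, a ratio of 3.01 (1.84 to 5.13). The B cell markers other than Cd74 had a summed ratio of 2.77, and the part of B cells in the Tlr7 value was not tested.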
